A study of Mus musculus with 78 samples.

Results

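The genes described are the ligands and receptors that steer growing axons in the classical guidance families: the ephrins and their Eph receptors, the semaphorins and plexins, the Slits and Robo receptors, and the netrins with the UNC5 receptors. They were chosen by symbol from the protein-coding autosomal genes of the mm10 annotation, with Ephb2 left out, which gave 62 genes of 20807. By class there were 5 ephrin-A ligands, 2 ephrin-B ligands, 9 EphA and 4 EphB receptors, 20 semaphorins of classes 3 to 7, 7 plexins, 3 Slits, 4 Robo receptors, 4 netrins and 4 UNC5 receptors. That is 34 ligands and 28 receptors on 18 chromosomes. No promoter window of one overlapped that of another.

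The study followed the Polycomb repressive complex 2 (PRC2) in the mouse myoblast line C2C12, differentiated into myotubes and synchronized by a serum shock, at 12, 16, 20, 24, 28 and 32 h after the shock. Chromatin immunoprecipitation with sequencing (ChIP-seq) gave 4 profiles with 3 replicates per time, that is 18 libraries per profile and 72 peak lists. Bio-EZH1 is biotinylated EZH1α, a catalytic subunit of PRC2, pulled down on streptavidin from shEzh1 cells that carry EZH1α with an Avi tag and the biotin ligase BirA. SUZ12, a core subunit of the same complex, was precipitated from that modified line, and H3K27me3, the histone mark that PRC2 places, from wild-type cells. In shEzh1 cells a short hairpin RNA targets both Ezh1α and Ezh1β. The study also reports ChIP-seq of EZH1α that carries an HA tag. Labels of the HA-EZH1 profile name C2C12 but neither the antibody nor the line. The modified cells were made by retroviral transfer and sorted, their EZH1α comes from a transgene, and cells with BirA alone were not analysed here. All groups shared the serum shock, and unshocked cells were not analysed here, so every comparison is between times or between these genes and all genes. GEO's tissue field says skeletal muscle although the cells are a cultured line. Peak lists hold no expression, so the cell identity could be checked only by promoter peaks. The muscle genes Myod1, Myog, Des and Actc1 were bound by none of Bio-EZH1, SUZ12 and H3K27me3, and the non-muscle developmental genes Hoxd10, Lhx2, Neurog1 and Pax6 by all of these at all 6 times.

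In the embryo, guidance molecules tell a growth cone where to turn. Ephrins sit on the cell surface and signal through Eph receptor tyrosine kinases on contact, semaphorins act mostly through plexins, Slits repel through Robo receptors, and netrins attract or repel, the repulsion needing UNC5 receptors. Several of these ligands and receptors are also used outside the nervous system, in vessels and at the nerve-muscle contact. PRC2 methylates lysine 27 of histone H3, and promoters rich in CG dinucleotides, many of them of developmental genes that are silent in the tissue, are its typical places in mammalian cells.

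Each deposited peak carries a fold enrichment, which is its signal divided by the local background modelled by the peak caller MACS2. A promoter peak is a peak with a q-value under 0.01 that overlaps the 3 kb on either side of the transcription start site (TSS, the 5′ end of the gene record). A promoter was called bound at a time when all 3 replicates had such a peak and these shared at least 1 bp. Lists held 8539 to 19827 peaks for Bio-EZH1, 21425 to 40379 for SUZ12, 45120 to 70797 for H3K27me3 and 2347 to 16366 for HA-EZH1. The number of reads behind a peak is unknown, so precision is judged from how far replicates differ. H3K27me3 libraries of 12 h stood apart, with 66719 peaks on average against 46232 to 49422 at the later times, and HA-EZH1 libraries of 20 and 24 h had the most peaks of their profile but few at promoters.

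The promoters differed in how rich they were in CG. Shown are the 250 bases before the TSS on the strand of the gene, from GRCm38.p6, for Sema5b, whose promoter had the highest Bio-EZH1 folds of these genes, and for Slit2 and Sema3e, which had no peak of Bio-EZH1, SUZ12, H3K27me3 or HA-EZH1 at the promoter. Each CG is in capitals. Sema5b encodes a transmembrane semaphorin with thrombospondin repeats, Slit2 a secreted repellent, and Sema3e a secreted semaphorin. The Sema5b stretch is chr16:35540895-35541144, plus strand, and holds 10 CG.
Sema5b: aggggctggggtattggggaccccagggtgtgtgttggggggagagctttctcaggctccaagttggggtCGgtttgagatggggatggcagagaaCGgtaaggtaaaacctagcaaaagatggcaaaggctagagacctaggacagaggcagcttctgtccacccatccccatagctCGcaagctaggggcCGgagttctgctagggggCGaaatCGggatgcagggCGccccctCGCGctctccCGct
The Slit2 stretch is chr5:47982888-47983137, plus strand, and holds 23 CG.
Slit2: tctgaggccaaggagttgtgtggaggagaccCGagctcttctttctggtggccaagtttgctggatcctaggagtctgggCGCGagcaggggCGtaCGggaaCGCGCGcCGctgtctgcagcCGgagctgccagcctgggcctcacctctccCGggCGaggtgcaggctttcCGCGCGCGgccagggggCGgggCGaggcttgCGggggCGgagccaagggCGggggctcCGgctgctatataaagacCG
The Sema3e stretch is chr5:14025026-14025275, plus strand, and holds 7 CG.
Sema3e: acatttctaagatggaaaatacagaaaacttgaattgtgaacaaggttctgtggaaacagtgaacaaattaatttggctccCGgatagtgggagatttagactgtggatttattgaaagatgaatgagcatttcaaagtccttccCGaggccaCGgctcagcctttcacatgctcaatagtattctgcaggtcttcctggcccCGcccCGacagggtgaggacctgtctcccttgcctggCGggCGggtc
In these 250 bases the unbound Slit2 promoter thus held more CG than the bound Sema5b promoter. There 85.3% of all genes had fewer CG than Slit2, against 52.8% for Sema5b. The median Bio-EZH1 summit of Sema5b lay outside this stretch, 349 bp downstream of the TSS. The 200 bases around that summit held 24 CG, and 70.2% of genes with a Bio-EZH1 peak in all 18 libraries had fewer around theirs.

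Within these windows the centre of the signal also varied. Shown are the 200 bases around the median Bio-EZH1 summit of 3 genes with a peak in all 18 libraries, on the strand of the gene and from GRCm38.p6, with each CG in capitals. None of the 3 stretches overlapped an annotated exon. That of Efna3, a membrane-anchored ephrin-A ligand, lies at chr3:89321111-89321310 on the minus strand, inside the gene, and holds 9 CG.
Efna3: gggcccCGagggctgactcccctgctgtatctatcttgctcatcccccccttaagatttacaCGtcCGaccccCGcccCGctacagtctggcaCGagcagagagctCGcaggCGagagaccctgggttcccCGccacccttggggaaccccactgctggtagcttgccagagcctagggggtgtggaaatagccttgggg
That of Plxnc1, a semaphorin receptor, lies at chr10:94945011-94945210 on the minus strand, upstream of the gene, and holds 17 CG.
Plxnc1: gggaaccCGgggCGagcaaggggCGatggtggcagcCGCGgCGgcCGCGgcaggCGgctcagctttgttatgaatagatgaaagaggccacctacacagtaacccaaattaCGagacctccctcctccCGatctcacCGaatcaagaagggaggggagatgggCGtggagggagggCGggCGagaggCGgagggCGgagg
That of Epha7, a receptor for ephrin-A ligands, lies at chr4:28813852-28814051 on the plus strand, inside the gene, and holds 33 CG.
Epha7: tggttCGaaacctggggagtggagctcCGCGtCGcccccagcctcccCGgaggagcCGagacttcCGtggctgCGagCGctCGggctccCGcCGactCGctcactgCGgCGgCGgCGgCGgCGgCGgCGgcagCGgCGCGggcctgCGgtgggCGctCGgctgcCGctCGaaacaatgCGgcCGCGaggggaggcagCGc
Of the genes with a peak in all 18 libraries, 14.1% had fewer CG around the summit than Efna3, 40.1% fewer than Plxnc1 and 97.3% fewer than Epha7.

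Bio-EZH1 was found at the promoters of 27 of the 62 guidance genes (43.5%) at 1 or more times, against 12.4% of all genes, and of 17 (27.4%) at all 6 times, against 7.17% of all genes. SUZ12 bound 26 (41.9%) at 1 or more times, against 14.8% of all genes, and 7 (11.3%) at all 6, against 4.6%. H3K27me3 marked 25 (40.3%) at 1 or more times, against 22.9% of all genes, and 13 (21.0%) at all 6, against 9.66%. HA-EZH1 was different in that it bound 6 (9.68%) at 1 or more times, close to the 10.2% of all genes, and 0 at all 6, against 0.154% of all genes. With an equal number of peaks taken from every list of a profile, the counts at all 6 times were 3 for SUZ12 and 7 for H3K27me3, against 513 and 1206 of all genes. These counts are descriptions, and no test of the set was made.

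Ligands and receptors had like shares. Of the 34 ligands, 15 were bound by Bio-EZH1, 14 by SUZ12 and 13 by H3K27me3, and of the 28 receptors 12 were bound by each of the 3. The map of promoter peaks shows every gene at every time, and most promoters were either full or empty in a profile.

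**Figure D1:**
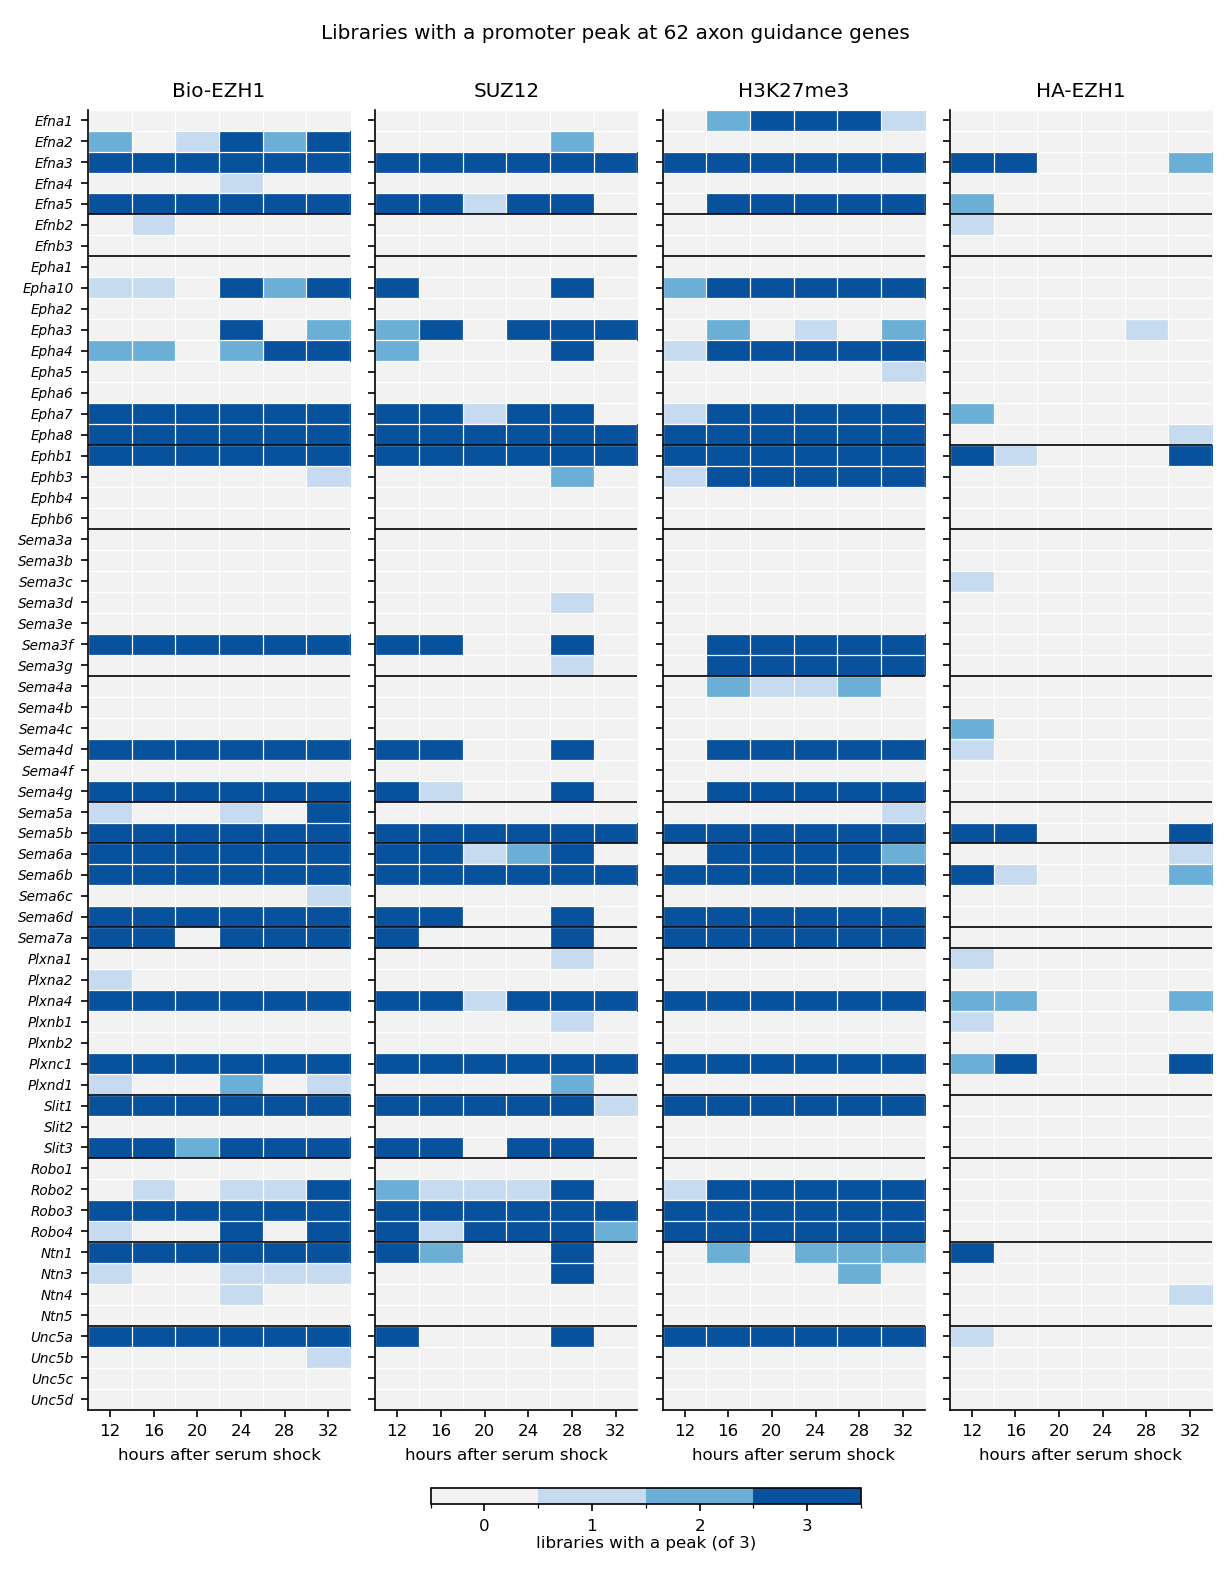
Number of libraries (0 to 3) with a promoter peak for each of the 62 genes, in rows by class, at each time in hours after the serum shock, in columns, for the 4 profiles. The 7 genes Sema5b, Efna3, Sema6b, Plxnc1, Epha8, Ephb1 and Robo3 are dark throughout Bio-EZH1, SUZ12 and H3K27me3. No promoter peak with a q-value under 0.01 was in any of the 72 lists for 17 genes (27.4%), against 45.8% of all genes. With peaks as deposited this held for 14 of the 62.

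Bio-EZH1, SUZ12 and H3K27me3 met at 20 guidance promoters (32.3%) at the same time point, against 8.92% of all genes, and at 7 (11.3%) at all 6 times, against 3.39% of all genes. The 7 were the semaphorins Sema5b and Sema6b, the ephrin Efna3, the receptors Epha8, Ephb1 and Robo3, and the plexin Plxnc1, which encode 3 ligands and 4 receptors. On GRCm38 their TSSs lie at chr16:35541145 (Sema5b, plus strand), chr17:56140343 (Sema6b, minus), chr3:89322965 (Efna3, minus), chr4:136956816 (Epha8, minus), chr9:102354693 (Ephb1, minus), chr9:37433246 (Robo3, minus) and chr10:94944835 (Plxnc1, minus). Robo3 is the Robo receptor of commissural axons, Ephb1 binds ephrin-B ligands, Epha8 binds ephrin-A ligands, and Sema6b is a transmembrane semaphorin that binds class A plexins. Of the 27 promoters bound by Bio-EZH1, 25 were also bound by SUZ12 at some time (92.6%, against 94.9% among all genes bound by Bio-EZH1) and 22 by H3K27me3 (81.5%, against 89.2%). Read the other way, 22 of the 25 marked by H3K27me3 were bound by Bio-EZH1 (88.0%), where among all genes it was 48.2%.

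The exceptions were few and are named after seeing their values. Efna2 and Sema5a were bound by Bio-EZH1 alone of these 3 profiles. Ntn3, a netrin, was bound by SUZ12 alone, at 28 h, by peaks centred at a median of 3058.5 bp downstream, at the edge of the window. Efna1, Ephb3 and Sema3g were marked by H3K27me3 alone. Their strongest peaks were centred at medians of 150.25, -9825 and 3048 bp from the TSS, in that order. At Ephb3 H3K27me3 thus came from an upstream domain and covered 18.3% of the window on average. The Sema3g window also holds the TSS of Nisch, so that its peak cannot be given to one of them. Epha3, Slit3 and Ntn1 had Bio-EZH1 and SUZ12 without H3K27me3 being called at any time. Single H3K27me3 libraries did have a promoter peak at Ntn1 (8 of 18) and Epha3 (5 of 18), and 0 of 18 did at Slit3.

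The classes differed in how many promoters were bound, though each holds few genes. Of all genes, 12.4% were bound by Bio-EZH1, 14.8% by SUZ12 and 22.9% by H3K27me3 at 1 or more times. Bio-EZH1 bound 5 of 9 EphA promoters, 3 of 4 class 6 semaphorins (Sema6a, Sema6b and Sema6d) and 3 of 4 Robo promoters (Robo2, Robo3 and Robo4), and SUZ12 bound as many in each of these classes. Robo4 is known from endothelial cells, and Robo2 from axons. H3K27me3 marked 4 EphA, 3 class 6 and 3 Robo promoters. Of the 5 ephrin-A genes 3 were bound by Bio-EZH1 (Efna2, Efna3 and Efna5), of the 2 ephrin-B genes none, and of the 4 EphB receptors 1 (Ephb1). Both class 5 semaphorins, Sema5a and Sema5b, were bound by Bio-EZH1.

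The secreted class 3 semaphorins, most of which act through neuropilins and class A plexins, were mostly free of peaks, as were most genes. Of the 7, only Sema3f was bound by Bio-EZH1 (14.3%, against 12.4% of all genes), at all 6 times. Sema3a, Sema3b, Sema3c and Sema3e had no peak of Bio-EZH1, SUZ12 or H3K27me3 at the promoter in any library. The same held for 63.2% of all genes. Of the 6 class 4 semaphorins 2 were bound by Bio-EZH1, Sema4d and Sema4g, both at all 6 times, and both had 15 H3K27me3 libraries, all those of 16 h and later. Sema7a, which is anchored to the membrane by a lipid, was bound by Bio-EZH1 in all 15 libraries other than those of 20 h. Of the 7 plexins, Plxna4 and Plxnc1 were bound in each of the 3 PRC2 profiles, and the other 5 were called bound in none of them. Of the Slits, Slit1 and Slit3 were bound by Bio-EZH1 and SUZ12, and Slit2 by neither. Ntn1, the founding netrin, was the netrin bound by Bio-EZH1, and Unc5a the UNC5 gene.

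Altogether 31 of the 62 promoters were called bound in none of Bio-EZH1, SUZ12 and H3K27me3 at any time (50%), against 75.3% of all genes, and 19 of these had no such peak in any library (30.6% of the 62), against 63.2% of all genes. They included Epha1, Epha2, Epha6, Ephb4, Ephb6, Efnb3, Robo1, Unc5c and Unc5d.

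Peak strength had a median near that of all genes. Over the 18 guidance genes with a Bio-EZH1 peak in all 18 libraries, the median of their geometric mean fold enrichments was 8.84, against 8.63 over the 1543 genes of that kind. Single members lay high. Sema5b ranked 131 of 1543, with a geometric mean fold of 31.5 that lay above 91.5% of those genes. For H3K27me3, Efna3 ranked 13 and Sema6b 16 of 2034 genes with a peak in all 18 libraries, with geometric means of 7.14 and 6.90. A fold belongs to the whole peak, and H3K27me3 peaks are broad and can reach beyond the window. Their median lengths were 6001.5 bp at Efna3 and 26445 bp at Sema6b, where the strongest was centred at a median of -7984.5 bp.

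Bio-EZH1 folds are given for the 7 promoters that were bound throughout, replicates 1 to 3 in turn. Library medians here are taken over the genes with a promoter peak in all 18 libraries of a profile. For Bio-EZH1 they were lowest at 20 h and highest at 24 and 32 h. Medians over all deposited peaks differed, with 3.18, 3.42 and 3.20 at 20 h. They were 2.81, 2.97 and 3.07 at 24 h, and 3.07, 2.91 and 3.09 at 32 h. The folds printed here are not centred on the library. At Sema5b they were 36.1, 43 and 45.2 at 12 h, 26.6, 29 and 30.1 at 16 h, 19.2, 22 and 19.7 at 20 h, 40.1, 31.6 and 40.3 at 24 h, 36.9, 33.3 and 30.9 at 28 h, and 33.9, 32.7 and 32.3 at 32 h. All 3 libraries of 20 h lay below every other library, and those of 16 h were next. At Efna3 they were 24.4, 23.7 and 20.8 at 12 h, 19.3, 19.6 and 19.1 at 16 h, 18.1, 14.7 and 15.4 at 20 h, 25.6, 30.5 and 28.2 at 24 h, 29, 26.9 and 29.8 at 28 h, and 26, 24.8 and 29.3 at 32 h. All 9 libraries of 24, 28 and 32 h lay above the 9 libraries of 12, 16 and 20 h. After centring on the library median, described below, the log2 mean of 32 h (1.26) lay below those of 12 h (1.34) and 16 h (1.29). Those of 24 and 28 h stayed above all others.

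Sema6b and Plxnc1 had narrower ranges. At Sema6b the Bio-EZH1 folds were 23.1, 20.4 and 23.5 at 12 h, 23.3, 21.1 and 22.2 at 16 h, 17.8, 16.5 and 13.7 at 20 h, 24.9, 23.9 and 23.1 at 24 h, 17.1, 16 and 18.3 at 28 h, and 25.6, 23.9 and 22.6 at 32 h, and the libraries of 20 and 28 h lay below those of the other times. At Plxnc1 they were 15.8, 18.3 and 20.03 at 12 h, 17.3, 13 and 14.4 at 16 h, 14.9, 15.6 and 13.8 at 20 h, 21.7, 24.1 and 23.6 at 24 h, 17.7, 16.2 and 16.5 at 28 h, and 23.3, 22.3 and 16.3 at 32 h, where no time stood clear of the others.

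Among the receptors, Epha8 folds were 13.9, 14.8 and 19.6 at 12 h, 20.6, 18.9 and 19.4 at 16 h, 19, 10.5 and 15.1 at 20 h, 18.5, 14.8 and 20.1 at 24 h, 9.32, 8.88 and 9.86 at 28 h, and 18.5, 20.5 and 19.5 at 32 h. The 28 h libraries lay below all others. Ephb1 folds were 16.3, 15.1 and 14.4 at 12 h, 11.8, 13.7 and 10.5 at 16 h, 14.6, 7.64 and 9.74 at 20 h, 27.2, 20.5 and 21.7 at 24 h, 14.4, 11.5 and 13.5 at 28 h, and 19.8, 16.5 and 14.7 at 32 h. Here the 24 h libraries were the highest, and those of 20 h were spread widely. Robo3 folds were 11, 9.49 and 9.99 at 12 h, 9.84, 9.62 and 8.94 at 16 h, 8.92, 6.48 and 6.59 at 20 h, 7.26, 7.48 and 6.62 at 24 h, 10.3, 12 and 10.6 at 28 h, and 16.1, 16.9 and 16.3 at 32 h, so that the 32 h libraries lay above all others and those of 20 and 24 h below.

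A further 4 promoters had Bio-EZH1 in all 18 libraries and were among the 8 with the smallest p over time. Plxna4, a receptor of class 3 and 6 semaphorins, had folds of 20.1, 22.9 and 23.7 at 12 h, 17.3, 17.9 and 14.6 at 16 h, 11, 12.2 and 8.52 at 20 h, 15.1, 15.2 and 19.5 at 24 h, 21.6, 24.1 and 22.5 at 28 h, and 27, 26.5 and 23.4 at 32 h. Slit1, a secreted repellent of the brain, had 5.44, 5.88 and 8.68 at 12 h, 7.03, 6.6 and 5.45 at 16 h, 3.43, 3.58 and 3.4 at 20 h, 10.4, 9.59 and 11 at 24 h, 6.31, 6.81 and 6.78 at 28 h, and 7.17, 8.03 and 7.1 at 32 h. In both the 20 h libraries lay below all others. Efna5, an ephrin-A ligand, had 10.4, 10.5 and 12 at 12 h, 7.95, 8.06 and 5.61 at 16 h, 5.29, 7.02 and 6.04 at 20 h, 15.5, 17.2 and 15.4 at 24 h, 7.87, 10.4 and 8.68 at 28 h, and 10.6, 9.38 and 9.93 at 32 h. Sema4d, a ligand of Plxnb1, had 6.03, 5.69 and 7.47 at 12 h, 3.47, 4.08 and 3.52 at 16 h, 4.91, 5.2 and 3.6 at 20 h, 8.31, 7.85 and 9.4 at 24 h, 5.59, 6.67 and 5.92 at 28 h, and 7.58, 8.46 and 8.84 at 32 h. In both genes the 24 h means were the highest, at Efna5 with no overlap with another time.

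To ask whether a promoter changed beyond others of its library, the log2 fold of its strongest promoter peak was tested over the 6 times. This used limma's F-test on genes with a peak in all 18 libraries, with Benjamini-Hochberg adjustment over all of them. Each fold was first centred on the library's median over those genes. Library medians of Bio-EZH1 ranged from 6.6 to 11.6. They lay between 6.6 and 7.1 at 20 h, between 10.5 and 11.2 at 24 h and between 10.7 and 11.6 at 32 h. With this centring, 14 of 18 guidance promoters passed an adjusted p of 0.05, against 76.2% of all genes tested, and the members' fold between the highest and the lowest time had a median of 1.55, against 1.58 for all genes. Robo3 had limma's adjusted p of 1.7e-05, with the 32 h mean 2.24-fold above that of 24 h. Epha8 followed another course, 2.25-fold higher at 16 h than at 28 h (limma's adjusted p = 3.4e-04). Plxna4 was 1.76-fold higher at 28 h than at 20 h (limma's adjusted p = 9.0e-05), Slit1 1.90-fold higher at 24 h than at 20 h (4.2e-04) and Sema5b 1.55-fold higher at 12 h than at 20 h (6.0e-04). Of the 18 fitted, 8 were lowest at 20 h, against 16.5% of all genes fitted. Efna3 passed with 0.010 but had limma's adjusted p of 0.066 without replicate 3 of 28 h. The calls of Sema6a and Sema6d were lost on leaving out any of 13 and 11 of the 18 libraries, with p up to 0.133 and 0.125. Sema3f was lost without replicate 2 of 20 h or replicate 1 or 2 of 28 h (up to 0.160), and Unc5a without replicate 1 or 3 of 16 h (up to 0.059). Ephb1, with 0.087, passed without replicate 1 of 20 h (0.013), and Sema4g, with 0.111, without replicate 2 of 12 h (0.040). Plxnc1 and Epha7 had limma's adjusted p of 0.430 and 0.476. When the covered share of the window replaced the fold, 11 of the 18 passed, and Robo3 (0.302), Slit1 (0.146), Efna5 (0.393), Sema4d (0.210), Sema6d (0.518) and Unc5a (0.475), called on the fold, did not. Epha7 (0.0024), Ephb1 (0.019) and Sema4g (0.024), not called on the fold, passed on the covered share.

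**Figure D2:**
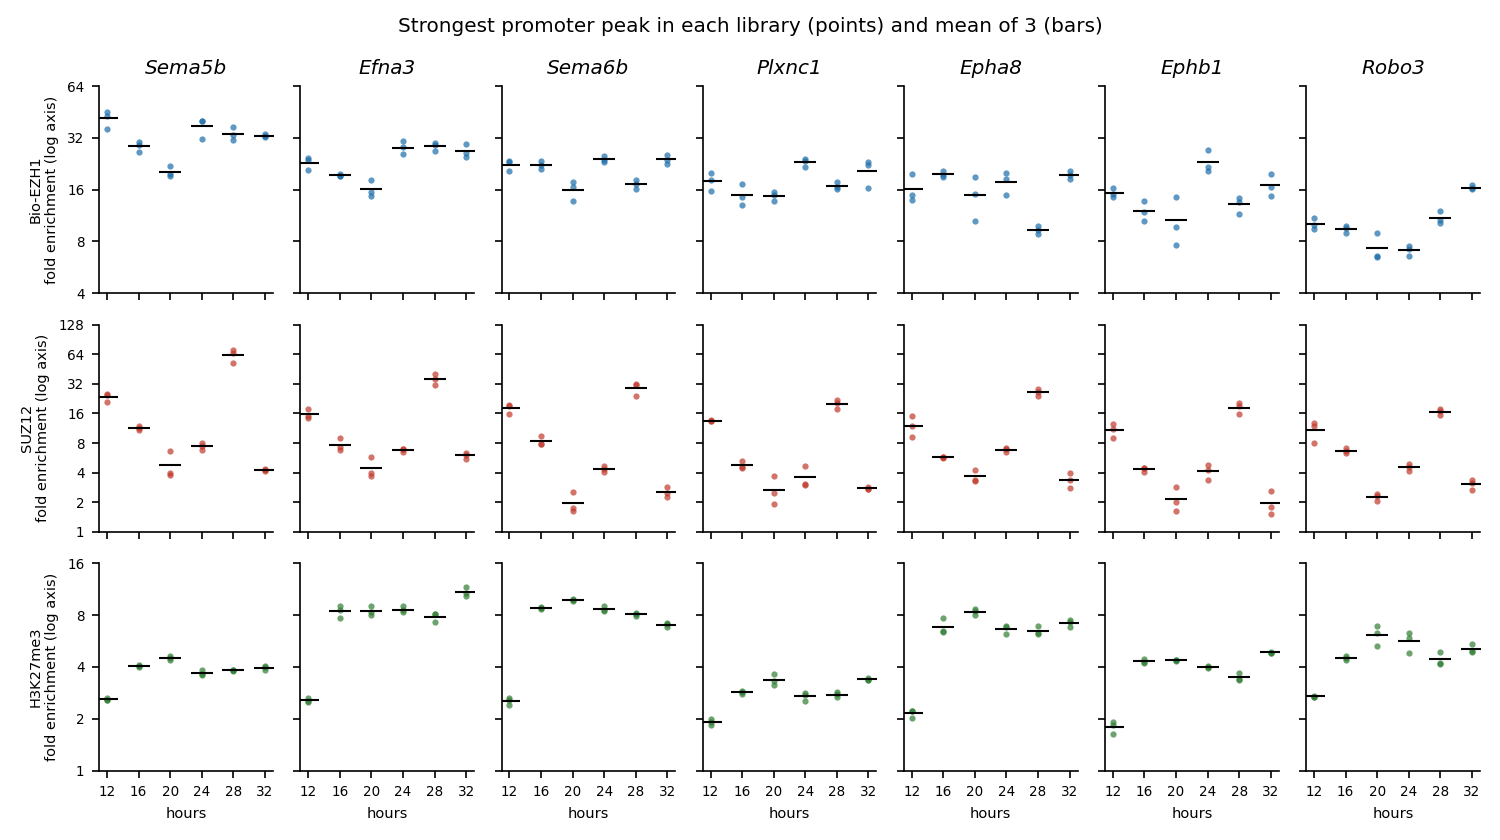
Fold enrichment of the strongest promoter peak (log axes, with a scale per row) in each library, as points, and the mean of 3, as bars, against hours after the serum shock, for the 7 promoters bound throughout, in columns, and Bio-EZH1, SUZ12 and H3K27me3, in rows. SUZ12 points of 28 h lie above those of every other time in all 7 genes, and H3K27me3 points of 12 h below.

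SUZ12 folds at the same 7 promoters moved together over time. At Sema5b they were 25.5, 24.8 and 21 at 12 h, 10.9, 11.3 and 12 at 16 h, 6.67, 3.79 and 4.01 at 20 h, 7.44, 8.01 and 6.84 at 24 h, 52.5, 66.5 and 70.1 at 28 h, and 4.16, 4.25 and 4.37 at 32 h. At Efna3 they were 17.9, 14.4 and 15 at 12 h, 7.27, 6.82 and 8.92 at 16 h, 5.83, 3.93 and 3.73 at 20 h, 6.49, 6.92 and 7.03 at 24 h, 30.9, 35.6 and 40.3 at 28 h, and 6.03, 5.57 and 6.38 at 32 h. At Sema6b they were 15.7, 19.7 and 19.2 at 12 h, 7.75, 7.85 and 9.39 at 16 h, 2.55, 1.62 and 1.76 at 20 h, 4.37, 4.09 and 4.65 at 24 h, 24.3, 31.4 and 31.8 at 28 h, and 2.86, 2.27 and 2.48 at 32 h. In these 3 genes, as in the 4 that follow, every 28 h library lay above every library of another time, and every 12 h library above those of 16, 20, 24 and 32 h. Plxnc1 folds were 13.3, 13.6 and 13.6 at 12 h, 4.43, 4.62 and 5.24 at 16 h, 3.67, 2.46 and 1.92 at 20 h, 4.7, 3.0 and 3.05 at 24 h, 17.6, 20.4 and 22.2 at 28 h, and 2.75, 2.71 and 2.88 at 32 h. Epha8 folds were 15, 9.27 and 11.9 at 12 h, 5.75, 5.74 and 5.65 at 16 h, 4.29, 3.31 and 3.38 at 20 h, 6.89, 7.1 and 6.51 at 24 h, 24.3, 28.2 and 26.4 at 28 h, and 2.79, 3.35 and 3.97 at 32 h. In both, the libraries of 28 h exceeded those of 32 h in every replicate. Ephb1 folds were 12.6, 9.06 and 11.1 at 12 h, 4.09, 4.42 and 4.42 at 16 h, 2.89, 2.03 and 1.63 at 20 h, 3.4, 4.83 and 4.28 at 24 h, 15.9, 18.9 and 20.4 at 28 h, and 1.8, 1.5 and 2.6 at 32 h. Robo3 folds were 8.0, 11.9 and 12.9 at 12 h, 7.17, 6.33 and 6.63 at 16 h, 2.4, 2.05 and 2.3 at 20 h, 4.16, 4.92 and 4.59 at 24 h, 15.5, 17.7 and 16.8 at 28 h, and 3.15, 2.65 and 3.34 at 32 h. In each of the 7 the lowest mean was at 20 or 32 h. This course was shared by the whole library: the median fold of genes with a SUZ12 peak in all 18 libraries lay between 17.4 and 19.1 in the 28 h libraries, between 11.3 and 11.5 in those of 12 h and between 3.53 and 3.75 in those of 32 h.

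The folds were then centred on the medians of genes with a peak in all 18 libraries. After this, 7 of 7 guidance promoters still passed limma's test over time, against 91.7% of the 1000 genes tested. Their range over time had a median of 1.87-fold, against 2.64-fold for all genes tested. Sema6b changed most, 3.25-fold higher at 12 h than at 20 h (limma's adjusted p = 1.5e-08), followed by Sema5b, 2.89-fold higher at 28 h than at 20 h (2.1e-07). Robo3 was 1.99-fold higher at 16 h than at 20 h (2.0e-04). Of the 7, 6 were lowest at 20 h and Ephb1 at 32 h, where 36.8% and 11% of all genes tested had their lowest mean.

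The number of guidance promoters with called SUZ12 peaks also differed between times. A promoter without a called peak may still hold weak signal, and the times with fewest promoters called, 20 and 32 h, were those of the lowest means at the 7 constant promoters. The members bound numbered 22, 15, 8, 14, 26 and 9 at 12, 16, 20, 24, 28 and 32 h, against 11.4%, 8.77%, 6.21%, 8.45%, 13.6% and 5.74% of all genes. Of the 26 bound at any time, 26 were bound at 28 h, as were 91.4% of all genes bound by SUZ12 at any time. Left without the 28 h libraries, which was tried after seeing the data, 23 were bound at 1 or more times, against 12.6% of all genes, and without those of 20 and 32 h, 12 were bound at all other times, against 7.10%. An exact test of presence over time, for genes with a peak in 3 to 15 of 18 libraries and with Benjamini-Hochberg adjustment over all genes tested, called 13 of 17 guidance promoters, against 41.4% of all genes tested. The 13 all had peaks in 3 of 3 libraries at 28 h and 0 of 3 at 32 h, which held for 96.4% and 95.2% of all genes called.

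Of these, 7 tied at the smallest adjusted p of 0.0054 and had the following folds. Sema3f had 4.54, 3.95 and 4.01 at 12 h, 1.83, 2.07 and 1.83 at 16 h, and 6.21, 6.55 and 6.98 at 28 h, and no peak at 20, 24 and 32 h. Sema4d had 3.49, 3.85 and 3.38 at 12 h, 2.16, 2.07 and 1.7 at 16 h, and 5.78, 8.55 and 8.57 at 28 h, and no peak at 20, 24 and 32 h. Sema6d, a semaphorin that binds Plxna1, had 3.76, 3.1 and 3.02 at 12 h, 1.96, 1.67 and 2.53 at 16 h, and 4.96, 4.84 and 4.85 at 28 h, and no peak at 20, 24 and 32 h. All 3 were thus called bound at 12, 16 and 28 h. Epha10, an Eph receptor without an active kinase, had 2.57, 1.97 and 2.49 at 12 h and 3.16, 3.65 and 4.35 at 28 h, and no peak at 16, 20, 24 and 32 h. Unc5a had 3.3, 3.02 and 3.51 at 12 h and 4.04, 5.68 and 5.43 at 28 h, and no peak at 16, 20, 24 and 32 h. Sema7a had 2.49, 1.57 and 1.79 at 12 h and 3.55, 4.03 and 3.83 at 28 h, and no peak at 16, 20, 24 and 32 h. These were called bound at 12 and 28 h. Slit3 had 4.76, 3.52 and 3.68 at 12 h, 2.28, 2.74 and 2.08 at 16 h, 1.89, 2.37 and 1.86 at 24 h, and 4.02, 4.51 and 6.19 at 28 h, and no peak at 20 and 32 h. The folds of these peaks were 1.57 to 8.57, low beside those of the 7 promoters bound throughout at 28 h. Bio-EZH1 was present in 17 or 18 libraries at Sema3f, Sema4d, Sema6d, Unc5a and Slit3.

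The other 6 called were Ntn1, Sema4g, Ntn3, Epha4, Epha7 and Efna5. The call of Epha4 was lost on leaving out any 1 of the 28 h replicates, with adjusted p up to 0.069 in the exact test, and those of Epha7 and Efna5 on leaving out any 1 of the 32 h replicates, also up to 0.069. With an equal number of peaks taken from each list the count was 12, and Epha4 and Sema7a were not among them (0.058 each). The call of Ntn1 was lost with peaks as deposited (adjusted exact p of 0.061).

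For Bio-EZH1 no guidance promoter was called in the test of presence. Members bound numbered 20, 20, 17, 24, 21 and 26 from 12 to 32 h, against 9.26%, 8.36%, 7.92%, 11.04%, 8.81% and 11.4% of all genes. In the exact test 0 of 10 guidance promoters were called at an adjusted p under 0.05, against 0% of 1427 genes, while 3 of the 10 and 332 of all genes had an unadjusted p under 0.05. The 3 were Robo4, with peaks in 1, 0, 0, 3, 0 and 3 libraries from 12 to 32 h, Sema7a with 3, 3, 0, 3, 3 and 3, and Epha3 with 0, 0, 0, 3, 0 and 2, and the smallest adjusted p was 0.085. Without any 1 of the 12 h replicates Robo4 was called (adjusted exact p of 0.033, 0.032 and 0.033), as was Epha3 without replicate 3 of 32 h (0.048).

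**Figure D3:**
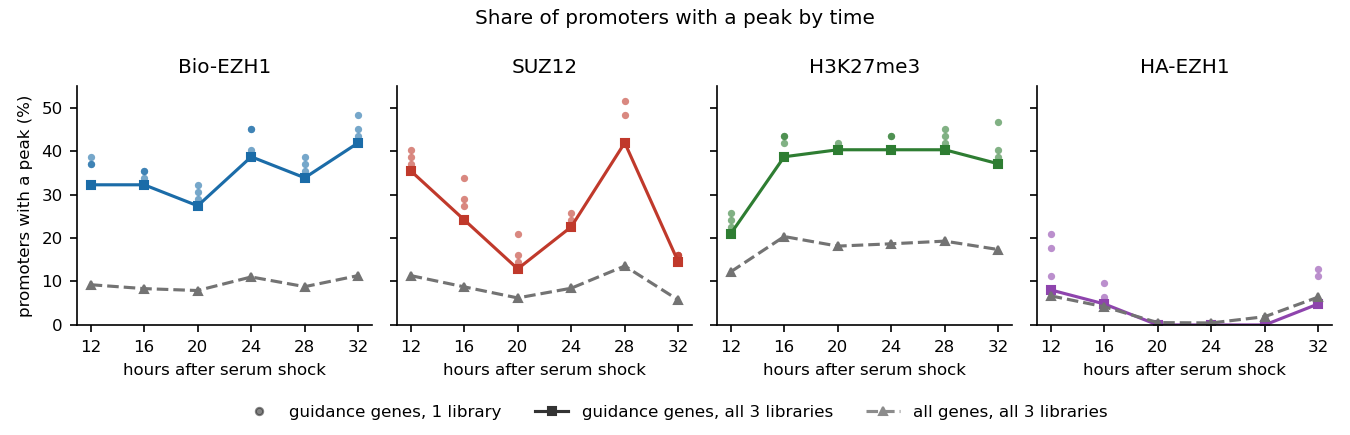
Percent of promoters with a peak against hours after the serum shock, in 4 panels by profile. Squares on solid lines are guidance genes bound in all 3 libraries, small points the share in each library, and triangles on dashed lines all genes bound in all 3 libraries. SUZ12 peaks at 28 h with 41.9% of guidance genes, H3K27me3 is low at 12 h with 21.0%, and HA-EZH1 is at 0 from 20 to 28 h.

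H3K27me3 peaks were called at the fewest guidance promoters at 12 h. Members marked numbered 13, 24, 25, 25, 25 and 23 from 12 to 32 h, against 12.2%, 20.3%, 18.1%, 18.7%, 19.3% and 17.4% of all genes. Without the 12 h libraries, an alternative chosen after seeing the data, 23 of the 62 were marked at all of the remaining times, against 15.5% of all genes. The exact test of presence called 5 of 10 guidance promoters, against 38.7% of all genes tested, namely Efna5, Sema3f, Sema3g, Sema4d and Sema4g. Each had 0 of 3 libraries at 12 h and 3 of 3 at every later time, with an adjusted exact p of 0.021, and 89.3% of all genes called were likewise empty at 12 h. With a q-value under 0.001 the calls of Sema3f and Sema3g (0.113 each), Sema4d (0.055) and Sema4g (1) were lost, and others gained, which gave 6 calls. In a window of 1 kb the call of Sema3f was lost (adjusted exact p of 0.188), and the count was 6. The count was 8 with peaks as deposited and 14 with equal numbers of peaks, where 2072 of all genes were called.

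H3K27me3 folds at the constant promoters showed the same break. At Sema6b they were 2.4, 2.65 and 2.55 at 12 h, 8.67, 8.93 and 8.77 at 16 h, 9.74, 9.91 and 9.71 at 20 h, 8.6, 8.99 and 8.41 at 24 h, 7.95, 8.13 and 8.23 at 28 h, and 7.18, 7.09 and 6.82 at 32 h. At Efna3 they were 2.5, 2.64 and 2.53 at 12 h, 8.54, 9.0 and 7.72 at 16 h, 8.02, 9.01 and 8.31 at 20 h, 8.99, 8.36 and 8.54 at 24 h, 8.08, 7.26 and 8.15 at 28 h, and 10.8, 11.6 and 10.3 at 32 h. At Epha8 they were 2.02, 2.22 and 2.22 at 12 h, 6.39, 7.66 and 6.48 at 16 h, 8.07, 8.66 and 8.48 at 20 h, 6.83, 6.23 and 6.97 at 24 h, 6.93, 6.26 and 6.31 at 28 h, and 7.49, 7.33 and 6.84 at 32 h. In these and in the 8 genes that follow, all 12 h libraries lay below every later one. Ephb1 had 1.63, 1.83 and 1.91 at 12 h, 4.22, 4.45 and 4.28 at 16 h, 4.33, 4.41 and 4.37 at 20 h, 3.99, 3.97 and 4.06 at 24 h, 3.41, 3.37 and 3.67 at 28 h, and 4.85, 4.91 and 4.83 at 32 h, with 32 h above all others. Unc5a had 1.51, 1.69 and 1.72 at 12 h, 5.2, 5.54 and 5.43 at 16 h, 5.36, 5.26 and 5.15 at 20 h, 5.6, 5.54 and 5.59 at 24 h, 5.55, 5.51 and 5.64 at 28 h, and 5.5, 5.39 and 5.02 at 32 h. Slit1 had 1.95, 2.01 and 2.02 at 12 h, 4.83, 5.0 and 5.14 at 16 h, 6.13, 6.35 and 6.07 at 20 h, 5.24, 5.33 and 5.63 at 24 h, 5.29, 5.28 and 5.67 at 28 h, and 5.16, 5.15 and 4.9 at 32 h, with 20 h above all others.

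Sema7a had H3K27me3 folds of 2.1, 2.37 and 2.2 at 12 h, 4.88, 5.47 and 5.08 at 16 h, 5.06, 5.09 and 5.05 at 20 h, 5.07, 4.79 and 4.84 at 24 h, 4.56, 4.72 and 4.69 at 28 h, and 5.38, 5.52 and 5.36 at 32 h. Plxna4 had 2.49, 2.64 and 2.58 at 12 h, 3.28, 3.08 and 3.22 at 16 h, 3.33, 3.19 and 3.01 at 20 h, 2.98, 3.09 and 2.96 at 24 h, 3.15, 3.08 and 3.18 at 28 h, and 3.33, 3.22 and 3.18 at 32 h, the flattest course of the 11 genes. Sema5b had 2.59, 2.58 and 2.63 at 12 h, 4.05, 4.09 and 4.01 at 16 h, 4.54, 4.4 and 4.66 at 20 h, 3.85, 3.66 and 3.58 at 24 h, 3.86, 3.8 and 3.87 at 28 h, and 4.07, 4.0 and 3.82 at 32 h. Plxnc1, by contrast with its Bio-EZH1 fold, ranked among the lowest of the constant H3K27me3 promoters, above 4.97% of them, and had 1.84, 1.92 and 2.0 at 12 h, 2.89, 2.78 and 2.86 at 16 h, 3.31, 3.63 and 3.16 at 20 h, 2.76, 2.81 and 2.55 at 24 h, 2.77, 2.67 and 2.84 at 28 h, and 3.38, 3.35 and 3.44 at 32 h. Robo3 had 2.69, 2.72 and 2.69 at 12 h, 4.39, 4.62 and 4.53 at 16 h, 6.92, 6.32 and 5.28 at 20 h, 5.9, 6.27 and 4.81 at 24 h, 4.92, 4.18 and 4.24 at 28 h, and 5.42, 4.87 and 4.94 at 32 h. Library medians of H3K27me3, over genes with a peak in all 18 libraries, moved in the same direction. They lay between 2.31 and 2.38 at 12 h and between 3.76 and 4.38 later.

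After centring, 13 of 13 guidance promoters passed limma's test, against 95.3% of the 2034 genes tested, with a median range of 1.49-fold, against 1.43-fold for all genes. Efna3 was 2.61-fold higher at 32 h than at 12 h relative to its libraries (limma's adjusted p = 6.2e-11), Epha8 2.12-fold at 20 h (1.2e-09), Sema6b 2.09-fold at 20 h (1.9e-13) and Unc5a 2.08-fold at 28 h (4.4e-12). In these 4 the difference came on top of the shift of the library median. Centring removes that shift but not a narrower spread of folds within a library, which was not tested. Peak lengths also differed between libraries. They ran from 2900 to 10090 bp at Efna3, 24700 to 155357 bp at Epha8, 19702 to 27698 bp at Sema6b and 2984 to 74084 bp at Unc5a. How far length entered these folds was not tested. Of the 13, 7 were lowest and 2 highest at 12 h, against 41.0% and 40.5% of all genes tested. Plxna4 and Sema5b were by contrast highest at 12 h relative to their libraries, 1.49-fold above 20 h (5.2e-09) and 1.16-fold above 24 h (5.8e-04).

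HA-EZH1 reached few guidance promoters. Members bound numbered 5, 3, 0, 0, 0 and 3 from 12 to 32 h, against 6.70%, 4.19%, 0.538%, 0.461%, 1.89% and 6.42% of all genes. The 6 bound at some time were Efna3, Ephb1, Sema5b, Sema6b, Plxnc1 and Ntn1, and all of them were also bound by Bio-EZH1, whereas among all genes bound by HA-EZH1 20.5% were. Sema5b had HA-EZH1 folds of 3.63, 3.34 and 4.75 at 12 h, 3.51, 3.79 and 3.82 at 16 h, and 3.92, 3.58 and 3.72 at 32 h, and no peak at 20, 24 and 28 h. Efna3 had 3.03, 2.71 and 3.46 at 12 h, 1.9, 2.27 and 2.13 at 16 h, and 2.22 and 2.5 in 2 of 3 libraries at 32 h, and no peak at 20, 24 and 28 h. In both genes the 3 libraries of 12 h and of 16 h all had a peak. Plxnc1 had 2.83 and 3.7 in 2 of 3 libraries at 12 h, 2.43, 2.41 and 2.28 at 16 h, and 2.89, 2.7 and 3.05 at 32 h, and no peak at 20, 24 and 28 h. Ephb1 had 3.13, 3.13 and 4.31 at 12 h, 1.86 in 1 of 3 at 16 h, and 3.31, 2.49 and 2.36 at 32 h, and no peak at 20, 24 and 28 h. In all of these the peaks were of 12, 16 and 32 h only, and their folds were well below those of Bio-EZH1 in the same genes, though the profiles were not made or normalized alike. Ntn1 had 3.4, 3.09 and 3.32 at 12 h, and no peak at 16, 20, 24, 28 and 32 h. Sema6b had 3.57, 2.4 and 4.83 at 12 h, 2.79 in 1 of 3 at 16 h, and 2.71 and 2.42 in 2 of 3 libraries at 32 h, and no peak at 20, 24 and 28 h. Plxna4 had 2.82 and 2.9 in 2 of 3 libraries at 12 h, 2.03 and 2.06 in 2 of 3 libraries at 16 h, and 2.12 and 2.7 in 2 of 3 libraries at 32 h, and no peak at 20, 24 and 28 h.

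The exact test of presence called 5 of 7 guidance promoters for HA-EZH1, against 51.7% of all genes tested. The adjusted exact p was 0.0027 for Sema5b, 0.014 for Efna3 and Plxnc1, 0.017 for Ephb1 and 0.018 for Ntn1. With an equal number of peaks from each list the call of Plxnc1 was lost (0.089). Of the 63 library peaks of HA-EZH1 at guidance promoters 62 were of 12, 16 or 32 h (98.4%), against 84.1% over all genes. Left without the 12 h libraries, as tried after seeing the data, 4 promoters were bound at 1 or more times, against 8.48% of all genes.

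Where around the TSS the peaks lay was steady for most genes and differed between them. Median Bio-EZH1 summits lay 349 bp downstream of the TSS at Sema5b, 195 bp at Sema6b, 281 bp at Epha8, 158.5 bp at Robo3, 595.5 bp at Ephb1 and 1755.5 bp at Efna3, and at -275 bp, that is upstream, at Plxnc1. SUZ12 summits were near these, at 427, 209.5, 277, 152, 716.5 and 1647 bp downstream in the same order and at -329.5 bp at Plxnc1. The gap between the medians of the 2 profiles had a median of 54.5 bp over the 7 genes, against 32.5 bp over the 819 genes with both in all libraries. Over the 18 guidance genes with a constant Bio-EZH1 peak the median distance of the summit from the TSS was 409 bp, against 513 bp for all such genes.

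**Figure D4:**
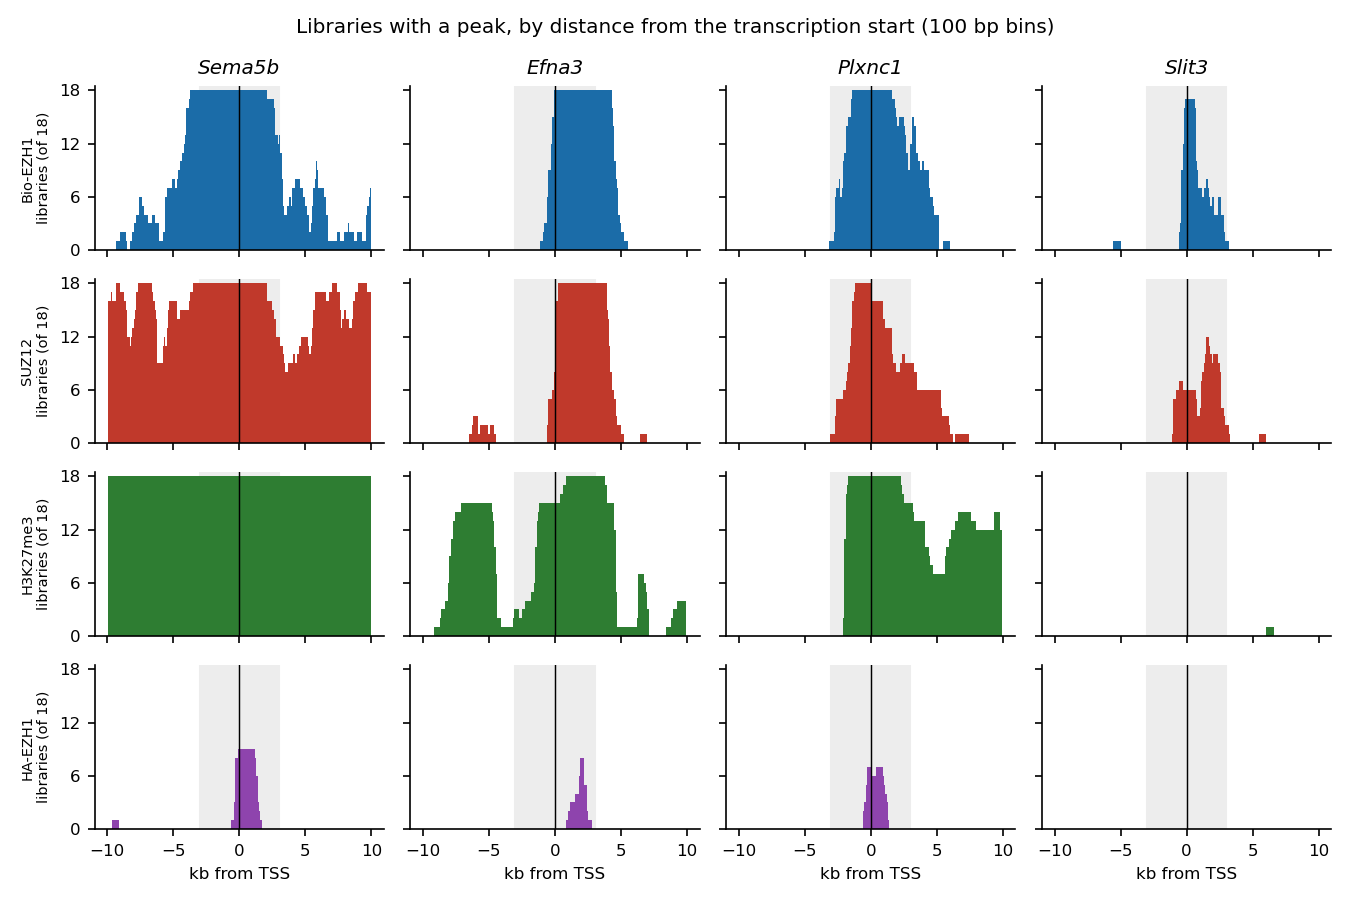
Number of libraries (of 18) with a peak in each 100 bp bin against the distance from the TSS in kb along the gene, for Sema5b, Efna3, Plxnc1 and Slit3, in columns, and the 4 profiles, in rows. The grey band is the promoter window. H3K27me3 fills the whole span shown at Sema5b, and lacks any promoter peak at Slit3, where Bio-EZH1 had one in 17 libraries.

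The width of the H3K27me3 domain differed widely among the constant promoters. The longest H3K27me3 peak over the promoter had a median length over libraries of 64866 bp at Sema5b, 63194.5 bp at Epha8, 26445 bp at Sema6b, 23851 bp at Ephb1, 19065 bp at Robo3, 6263.5 bp at Plxnc1 and 6001.5 bp at Efna3. At Sema5b the median Bio-EZH1 peak was 7325.5 bp and that of SUZ12 11211.5 bp, and at Epha8 they were 3961.5 and 5121.5 bp. Robo3 and Robo4 start 31349 bp apart on chromosome 9, and in 7 of the 18 H3K27me3 libraries a single peak spanned both TSSs, so these promoters are not independent in that profile. Efna3 lies 15063 bp from Efna4 and 41823 bp from Efna1 on chromosome 3, and only Efna3 of these was bound by Bio-EZH1.

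Beyond 3 kb of the TSS, H3K27me3 peaks covered on average 95.3% of the rest of the Epha8 gene, 91.0% of Robo4, 88.8% of Sema5b, 87.4% of Unc5a, 80.8% of Robo3, 63.4% of Slit1 and 54.0% of Epha10. Plxnc1, at 31.5%, and Plxna4, at 22.5%, were covered in part. Slit3, with no H3K27me3 peak at its promoter, had 30.9% of its gene covered, with peaks in 18 of 18 libraries. Unc5d, whose promoter was not called bound in any profile, had SUZ12 peaks in its gene in 18 libraries, and Epha6 had H3K27me3 peaks in 18, covering 1.19% and 1.60% of those genes. Plxna1 had H3K27me3 in its gene in 14 libraries and Efna2 Bio-EZH1 in 18. Long genes offer more room for peaks, so these counts are not compared with the promoter counts.

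In median CG content the guidance promoters lay above all promoters, bound or not. The ratio of observed to expected CG within 500 bp of the TSS had a median of 0.685 over the 62 genes, against 0.568 over all genes. Among those with a Bio-EZH1 peak in all 18 libraries it was 0.724 (n = 18), against 0.686 for all such genes (n = 1543), and among those without a Bio-EZH1 peak it was 0.629 (n = 26), against 0.523 (n = 15870). Over the 62 genes the ratio ran from 0.113 at Plxna2 to 0.984 at Plxna1. Within the constant group it ran from 0.50 at Sema3f to 0.98 at Plxnc1. Slit2 (0.75) and Unc5d (0.89) had values of the same size without a promoter peak. The E-box CACGTG, which reads alike on both strands and is the core of the sites that clock factors of the CLOCK and BMAL1 kind bind, was present within 500 bp of the TSS in 9 of 62 guidance genes (14.5%), against 17.3% of all genes, and in the 250 bases upstream in 4 (6.45%), against 6.60%.

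**Figure D5:**
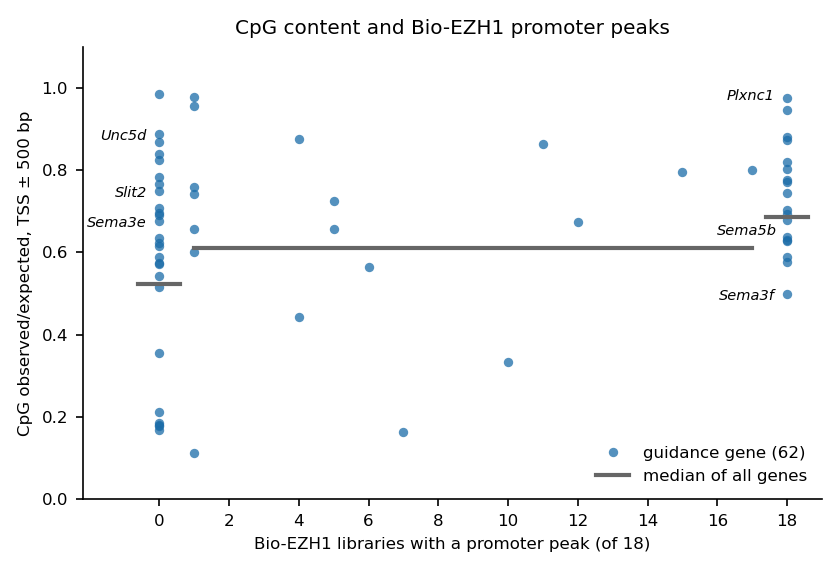
Ratio of observed to expected CG within 500 bp of the TSS against the number of Bio-EZH1 libraries with a promoter peak (0 to 18), 1 point per guidance gene. Grey bars are medians of all genes with no peak, with 1 to 17 and with 18. Points at 18 libraries lie between 0.50 and 0.98, and those at 0 between 0.17 and 0.98.

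Other genes of the pathway were counted for context, from lists put together by family knowledge. Of 36 further guidance ligands, receptors and co-receptors, 11 were bound by Bio-EZH1, 13 by SUZ12, 15 by H3K27me3 and 4 by HA-EZH1, against 12.4%, 14.8%, 22.9% and 10.2% of all genes in the same order. Cntn2, Draxin, Kdr, Ntng1 and Ntng2 had peaks of all 3 PRC2 profiles at every time. Draxin is a secreted repellent and the netrin-G genes encode membrane-bound relatives of netrins. Of 62 genes for the intracellular effectors that act downstream of these receptors, 7 were bound by Bio-EZH1, 8 by SUZ12, 12 by H3K27me3 and 5 by HA-EZH1, numbers near those shares of all genes, and 49 by none of Bio-EZH1, SUZ12 and H3K27me3, against 75.3% of all genes. In the test of presence over time for SUZ12, 5 of the 7 further guidance genes tested and 3 of the 4 effectors tested were called, against 41.4% of all genes tested.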

How the data were processed

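Peak lists of 72 libraries were analysed. HA inputs, 6 further samples, had none and were not used here. Per the study's methods, the authors used BBDuk for trimming and BWA 0.7.17 for alignment to mm10 and, for spike-in chromatin, to the Drosophila genome BDGP6, split the reads with disambiguate, marked duplicates with Picard, kept proper pairs of mapping quality 30 or more with SAMtools 1.7 and ran MACS2 2.2.4 on every library separately. Lists as deposited are narrow peaks with q up to 0.05, and broad peaks with q up to 0.1 for H3K27me3. The filter applied to the lists after calling is not given in the sources used here. Of the columns that the authors deposited, 2 were used: the fold enrichment, a ratio to the modelled background, and the q-value on a −log10 scale. Spike-in factors and read depths were not used here, so folds are not calibrated between libraries. SUZ12 lists carry names that could be read as streptavidin. The labels were followed, and were they exchanged, Bio-EZH1 and SUZ12 values would change places.

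Genes and TSSs came from GENCODE M21 on GRCm38, and CG counts and sequences from GRCm38.p6. The 62 members and all lists were chosen with earlier results of these data known. Presence over time was tested per gene with an exact conditional test of the number of replicates with a peak, for genes with a peak in 3 to 15 of 18 libraries. Fold over time was tested with limma 3.58.1 in R 4.3.3 (F-test over 6 times). Both were adjusted by Benjamini-Hochberg over all genes tested, with a threshold of 0.05, and both were tested on simulated data. Per-library values are given for members bound throughout, for up to 8 per profile with the smallest adjusted p, ties included, and for those with the most HA-EZH1 libraries. Other members are named with their counts. Labels call the samples biological replicates but do not say that these are separate cultures, so p-values measure the spread between these samples. Alternatives covered the q-value limit, window, TSS definition, replicate overlap, equal numbers of peaks, centring, covered share, each library left out and the replicate number as a block.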

Additional observations from a re-analysis of the deposited data

How the results depend on the processing

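Under settings other than leaving out a library, 103 of 109 counts of guidance genes stayed within 1.5 times. With an equal number of peaks from each list, SUZ12 was bound at all 6 times at 3 members instead of 7 (all genes 513 instead of 957), H3K27me3 at 7 instead of 13 (1206 instead of 2010), and H3K27me3 presence called 14 instead of 5 (2072 instead of 996). With peaks as deposited, H3K27me3 presence called 8. Chosen after seeing the data, H3K27me3 marked 23 at all times without 12 h, and SUZ12 bound 12 at all times without 20 h and 32 h (all genes 1478). Over all genes alone, HA-EZH1 bound 1399 at 1 or more times with equal numbers of peaks and 3522 with 2 of 3 replicates, instead of 2123, and 7 instead of 32 at all 6 times. Bio-EZH1 presence called 22 genes with q under 0.001 and 20 in a window of 1 kb, instead of 0, and no member in either. The covered share called 715 instead of 1175 genes for Bio-EZH1.

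Replicate numbers did not pair the samples: deviations of same-numbered samples had median correlations of 0.005, -0.018 and -0.009 for Bio-EZH1, SUZ12 and H3K27me3. With the replicate number as a block, the presence test called 7 members for SUZ12 instead of 13 (all genes 341 instead of 945), 0 for H3K27me3 instead of 5 (0 instead of 996), 4 for HA-EZH1 instead of 5 and 0 for Bio-EZH1, and limma called 14, 7 and 13 as before. Leaving out each library in turn gave 0 to 1 called members for Bio-EZH1 presence, 11 to 14 for SUZ12, 5 to 7 for H3K27me3 and 5 to 6 for HA-EZH1, and 11 to 14, 7 to 7 and 13 to 14 for the folds of Bio-EZH1, SUZ12 and H3K27me3. Members bound at 1 or more times stayed at 27 to 28, 26 to 29, 25 to 27 and 6 to 8 in the 4 profiles. The depth behind each peak is unknown, so a missing peak cannot be told from a weak one.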
